A study of Mus musculus with 4 samples.

Results

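The ZBTB genes encode transcription factors, and they were examined here for binding by Runx3 in splenic CD4+ DC. Members were the protein-coding genes of the GENCODE M1 annotation of mm9 whose symbol is Zbtb followed by a digit, leaving out Zbtb46 and Zbtb7b, which gave 35 of 22238 protein-coding symbols. Runx3 peaks were counted for a gene when the peak centre lay in the gene body or within 10 kb of any of its TSS, and 33 of the 15121 peaks of the list met this rule. The cells were CD11chiMHCII+CD4+ conventional DC sorted from spleens of about 15 mice, fixed and frozen. Mice were of strain C57BL/6, and the label of 1 input reads C57BL/7. Neither genotype nor age is stated in the labels, and no group carried a treatment. The study describes the DC used for ChIP-seq as wild type. Chromatin was immunoprecipitated with a home-made polyclonal anti-Runx3 antibody in 2 samples, and 2 samples of whole cell extract chromatin served as input control. Bound regions were called by the authors with MACS2 in 1 comparison of both immunoprecipitates with both inputs, so no peak has a value per replicate and no spread between replicates can be given. No expression data were used, so the cell type was not checked against its markers.

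ZBTB proteins join an amino-terminal BTB domain, through which they pair and recruit corepressors, to carboxy-terminal zinc fingers that read DNA. Many of them repress transcription through NCoR or BCOR complexes with histone deacetylases. Several set cell fate in the immune system, in particular in lymphocytes. Runx3 belongs to the RUNX family, whose DNA-binding domain recognises the hexamer TGTGGT.

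A peak was found at 20 of the 35 ZBTB genes, or 57.1% (40.9% to 72.0% by the Wilson method at 95%), where 40.0% of all protein-coding genes had one. By this rule the strongest peaks were counted for Zbtb20, with a score of 77.4, and Zbtb3, with 73.9, followed by Zbtb9, Zbtb22 and Zbtb39. Those of Zbtb3 and Zbtb22 are centred at the TSS of neighbouring genes, 47 bp from that of Polr2g and 11 bp from that of Daxx. Scores were written by MACS2 in a unit that is not stated, and they served only to rank peaks within the list. Intervals of shares cover counting error alone. Those of gene shares treat the genes as independent, although 5 peaks counted for 2 members each. No peak was counted for Zbtb2, Zbtb7c, Zbtb8b, Zbtb17, Zbtb33, Zbtb34, Zbtb37, Zbtb38, Zbtb40, Zbtb41, Zbtb42, Zbtb43, Zbtb44, Zbtb45 and Zbtb49. Most ZBTB genes have a CpG-rich promoter, and among genes with such a promoter the share with a peak was 51.9% for ZBTB genes and 58.8% for all protein-coding genes.

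The RUNX hexamer was searched on both strands of each peak, and the sequences around it are shown for peaks in introns of ZBTB genes, for peaks at their promoters and for peaks that a neighbouring gene shares. All are given 5′ to 3′ on the plus strand of mm9, with TGTGGT, its reverse complement ACCACA and the hexamer TGACGT in capitals. A wider search also allowed the related hexamer TGCGGT, the related hexamer CGTGGT and the related hexamer CGCGGT. The intronic peaks of Zbtb20, Zbtb12, Zbtb25, Zbtb8a and Zbtb16 held these stretches.
Zbtb20 intron 8, chr16:43448734-43448884: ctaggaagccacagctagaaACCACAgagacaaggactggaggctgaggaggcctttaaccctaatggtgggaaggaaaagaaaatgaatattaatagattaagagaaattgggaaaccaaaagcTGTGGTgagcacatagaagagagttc
Zbtb12 intron 1, chr17:35024684-35024787: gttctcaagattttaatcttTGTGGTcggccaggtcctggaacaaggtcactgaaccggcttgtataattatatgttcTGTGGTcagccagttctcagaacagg
Zbtb25 intron 1, chr12:77462425-77462470: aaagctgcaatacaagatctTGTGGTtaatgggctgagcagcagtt
Zbtb8a intron 2, chr4:129042575-129042620: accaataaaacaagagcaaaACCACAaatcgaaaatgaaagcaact
Zbtb16 intron 2, chr9:48629722-48629767: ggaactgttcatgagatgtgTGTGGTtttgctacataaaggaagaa

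The promoter peaks with a RUNX hexamer were those of Zbtb5, Zbtb8os and Zbtb24 and the one that Zbtb6 and Zbtb26 share, whose stretch lies in an exon of Rabgap1.
Zbtb5 promoter, chr4:45025352-45025452: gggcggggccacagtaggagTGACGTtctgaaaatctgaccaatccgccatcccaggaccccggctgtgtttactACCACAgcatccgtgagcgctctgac
Zbtb6 and Zbtb26 promoter, chr2:37298848-37298877: agctctgctgctTGTGGTtcttcggtagaa
Zbtb8os promoter, chr4:129012746-129012791: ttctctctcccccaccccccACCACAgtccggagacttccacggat
Zbtb24 promoter, chr10:41170011-41170056: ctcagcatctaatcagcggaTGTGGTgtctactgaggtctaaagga

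Next to Zbtb3 and Zbtb22 the hexamer lay in peaks at the start of Polr2g, an RNA polymerase II subunit gene, and of Tapbp, the gene of tapasin, which helps to load peptides on MHC-I.
Zbtb3 upstream, chr19:8873278-8873323: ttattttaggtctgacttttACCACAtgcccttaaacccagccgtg
Zbtb22 downstream, chr17:34057632-34057677: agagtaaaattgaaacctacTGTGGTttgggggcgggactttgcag

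Peaks were few at most members. There were 10 genes with 1 peak, 4 with 2 peaks, 4 with 3 peaks and 2 with 4 peaks. Thus 10 ZBTB genes (28.6%) had 2 or more, where 16.0% of all protein-coding genes did. Among genes with a CpG-rich promoter the shares were close, at 25.9% for ZBTB genes and 24.6% for all. ZBTB genes with 3 or more were Zbtb1, Zbtb6, Zbtb7a, Zbtb20, Zbtb22 and Zbtb25, or 6 genes, and 6.43% of all protein-coding genes reached that number. Zbtb1 and Zbtb25 reached it with the same 3 peaks. With each peak given only to the gene with the nearest protein-coding TSS, Zbtb7a and Zbtb20 kept 3 peaks. Zbtb1 then had 2, Zbtb22 and Zbtb25 had 1 each and Zbtb6 had 0. Because 5 peaks counted for both genes of a neighbouring pair, the 33 peaks made 38 pairs of a gene and a peak. By position, 17 pairs were promoter pairs, with the peak centre at most 1 kb from a TSS, 7 were intronic, 10 upstream and 4 downstream. The symbol Zbtb8os also fits the rule, although its product is an archease-like protein and no zinc finger factor, and 19 of 34 genes had a peak without it.

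**Figure D1:**
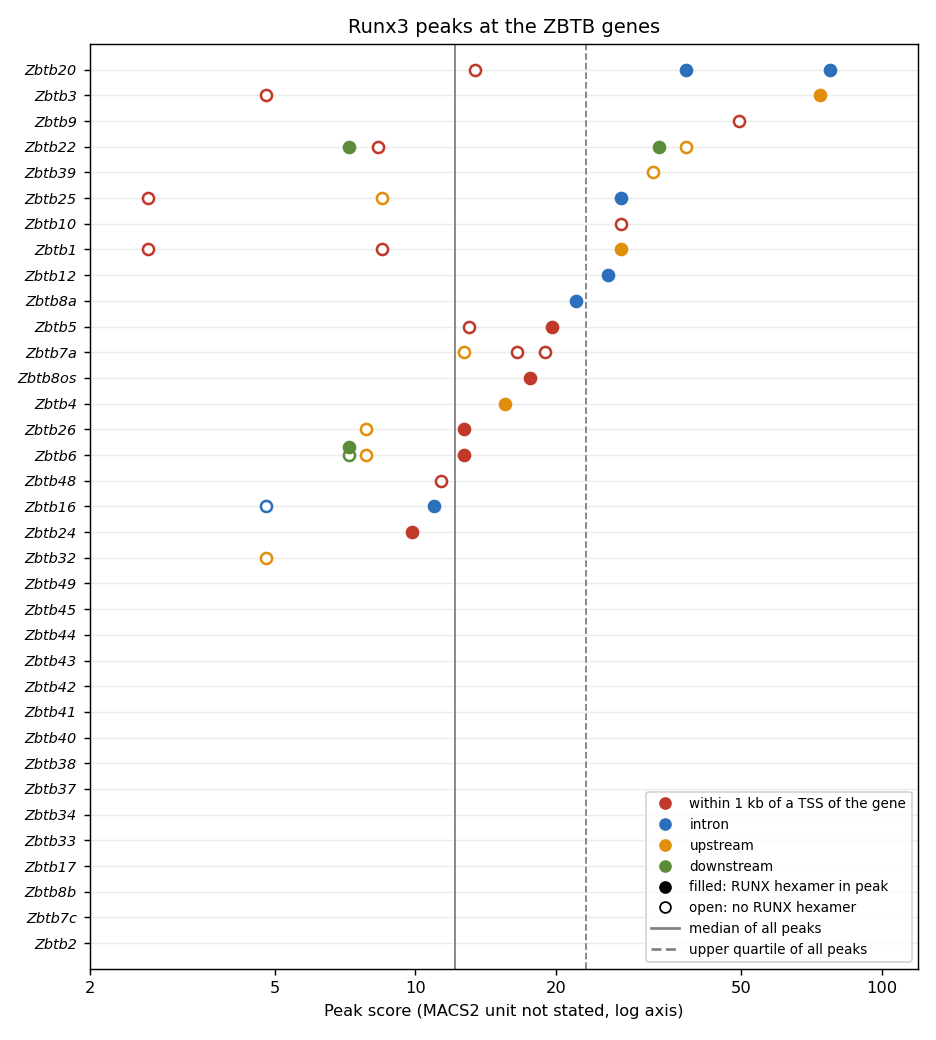
Each point is a Runx3 peak counted for the ZBTB gene on that line, by its score on a log axis, coloured by position and filled where the peak holds TGTGGT or its reverse complement; points with the same gene and score are set apart vertically. The 15 lines without a point are the genes without a peak, the grey line is the list median of 12.1 and the dashed line the upper quartile of 23.2.

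Among the members known from immune cells, 7 of 8 had a peak. This share is to be read beside the 40.0% of all protein-coding genes and the small number of genes. A CpG-rich promoter was present at 7 of the 8, and 58.8% of all protein-coding genes with such a promoter had a peak. Zbtb1 and Zbtb25 were counted through the same 3 peaks. The list was Zbtb1, Zbtb7a, Zbtb16, Zbtb17, Zbtb20, Zbtb24, Zbtb25 and Zbtb32, and it was chosen with earlier results of these data known. Zbtb17, the gene of the Myc partner Miz-1, was the one without a peak, and the closest peak was centred 12468 bp from one of its TSS.

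Zbtb20 encodes a repressor known from liver, where it silences alpha-fetoprotein, and from plasma cells. The gene spans 766722 bp on chromosome 16 (42875994 to 43642715, plus strand) and has 20 TSS. Its peak at chr16:43448463-43449132 scored 77.4, rank 368 of the list and percentile 97.6, and its centre lies in intron 8, 54930 bp upstream of the nearest TSS of the gene. A second peak of intron 8, at chr16:43412052-43412603, scored 38.1 and is centred 48010 bp downstream of a TSS. Both hold the RUNX hexamer 2 times, with the nearest copy 40 bp and 32 bp from the peak centre. The third, at chr16:42874976-42875807, scored 13.4, lies 603 bp upstream of the first TSS and holds no TGTGGT. The strong peaks of this gene were therefore intronic and far from a TSS, and the weaker one was at the promoter.

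Zbtb1, which is needed for lymphocyte development, and Zbtb25 lie head to head on chromosome 12 and shared 3 peaks. The strongest, at chr12:77462199-77462628, scored 27.6 and is in intron 1 of Zbtb25, 8840 bp upstream of Zbtb1 and 7573 bp from the nearest TSS of Zbtb25. It holds 1 TGTGGT, 35 bp from its centre. The peak between the genes, at chr12:77471056-77471397, scored 2.67, at percentile 1.16 of the list, and is centred 27 bp upstream of Zbtb1 and 679 bp upstream of Zbtb25. A peak in intron 1 of Zbtb1, at chr12:77471961-77472253, scored 8.49. Neither of these promoter peaks holds TGTGGT.

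Zbtb7a, the gene of LRF, which directs lymphoid progenitors to the B cell fate, had 3 peaks and no TGTGGT in any of them. They scored 19.0, 16.6 and 12.7. The first, at chr10:80599951-80600491, lies in intron 1 and 477 bp upstream of another TSS, the second, at chr10:80596921-80597357, is 826 bp upstream of the nearest TSS, and the third, at chr10:80591678-80592416, is 5918 bp upstream. The other LRF family gene among the members, Zbtb7c, spans 328384 bp without a peak, and its nearest peak centre was 257560 bp from a TSS.

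Zbtb16 encodes PLZF, the factor of NKT and other innate-like lymphocytes. Within its 181635 bp lay 2 peaks, both intronic and below the list median. The peak at chr9:48629549-48629923, in intron 2, scored 11.0 and holds 1 TGTGGT, 9 bp from its centre. The other, at chr9:48469401-48469708 in intron 5, scored 4.79 without the hexamer. Zbtb16 had no peak within 1 kb of its TSS.

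Zbtb24, mutated in an immunodeficiency with centromere instability, had 1 peak, at chr10:41169835-41170254, centred 145 bp upstream of its TSS. Its score was 9.84, and its TGTGGT lies 10 bp from the centre. Zbtb32, which restrains lymphocyte responses, had a weak peak at chr7:31384994-31385327 with a score of 4.79, 1232 bp upstream of its nearest TSS and without TGTGGT. These genes thus carried scores below the list median of 12.1.

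Of the factors that bind methylated CpG, Zbtb4 had a peak, and Zbtb33, the gene of Kaiso, and Zbtb38 had none. The Zbtb4 peak, at chr11:69572077-69573144, scored 15.5 and lies 6804 bp upstream of Zbtb4 but 471 bp from the TSS of Polr2a, the gene of the largest RNA polymerase II subunit. Kaiso is encoded on chromosome X, and the peak centre nearest to it lay 266684 bp away. For Zbtb38 the nearest peak centre was 19003 bp from a TSS, and that peak, at chr9:96570115-96570776, scored 67.0.

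Both members that bind telomeric repeats had a promoter peak, where 25.0% of all protein-coding genes and 42.2% of those with a CpG-rich promoter, as both members have, did. Zbtb10 had a peak at chr3:9249585-9249997 with a score of 27.6, 811 bp upstream of its TSS, and Zbtb48, the gene of TZAP, one at chr4:151401652-151402010 with a score of 11.3, 51 bp upstream. TGTGGT was in neither. At the Zbtb8 locus on chromosome 4, Zbtb8a had an intron 2 peak, at chr4:129042345-129042841, with a score of 22.1 and a TGTGGT 5 bp from its centre. Zbtb8os had a peak at chr4:129012512-129013221, 73 bp upstream of its TSS, that scored 17.7. No peak was counted for Zbtb8b, 18813 bp or more from any peak centre.

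Zbtb9, Zbtb39 and Zbtb5 are less studied members. The peak at chr17:27109844-27110426 covers the TSS of Zbtb9, is centred in exon 1, 23 bp downstream of the TSS, and scored 49.4, at percentile 92.9. This was the highest score among the promoter peaks of ZBTB genes. Zbtb39 had a peak at chr10:127174038-127174636, 2257 bp upstream, with a score of 32.3. Neither peak holds TGTGGT, but each holds 3 copies of the related hexamers. Zbtb5 had peaks with scores of 19.6 and 13.1, centred 15 bp downstream and 717 bp upstream of TSS. The weaker one is nearest to the TSS of 1700055D18Rik, at 299 bp. Both also counted for 1700055D18Rik and Polr1e.

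Neighbouring genes take part in many of these peaks. For 12 of the 33 peaks the nearest protein-coding TSS belonged to a gene that is no member, and 17 peaks were also counted for such a gene under the same rule. The Zbtb3 peak of 73.9, at chr19:8872741-8873447, is centred 47 bp from the TSS of Polr2g and 3892 bp upstream of Zbtb3. Zbtb3 itself had a peak of 4.79 at chr19:8876455-8876789, 364 bp upstream.

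Zbtb22 lies in the MHC region of chromosome 17 between Daxx, the gene of a histone chaperone, and Tapbp. Of its 4 peaks, that of 38.1, at chr17:34045951-34046851, is centred 11 bp from the Daxx TSS. Those of 33.2, at chr17:34057179-34058056, and of 7.2, at chr17:34056294-34056613, are centred 144 bp and 4 bp from TSS of Tapbp. At the TSS of Zbtb22 itself the peak at chr17:34052759-34053052 scored 8.31. Of the peaks of this window, those above the list median lay at the neighbours, and the peak at the Zbtb22 TSS and 1 of those at Tapbp lay below it.

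Zbtb6 and Zbtb26 overlap on chromosome 2 and shared a peak of 12.7, at chr2:37298572-37299175, centred 182 bp and 232 bp upstream of them and 57 bp from the TSS of Rabgap1. Zbtb6 had 3 more peaks, with scores of 7.2, 7.2 and 7.84, all nearest to a TSS of Rc3h2 or Rabgap1, and the last of them counted for Zbtb26 too. Zbtb12, also in the MHC region, had a peak of 25.8 at chr17:35024501-35024933 with 2 TGTGGT, whose nearest protein-coding TSS, at 5672 bp, is that of complement gene C2. When each peak was given only to the gene with the nearest protein-coding TSS, 16 ZBTB genes kept a peak, and 32.1% of all protein-coding genes did.

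**Figure D2:**
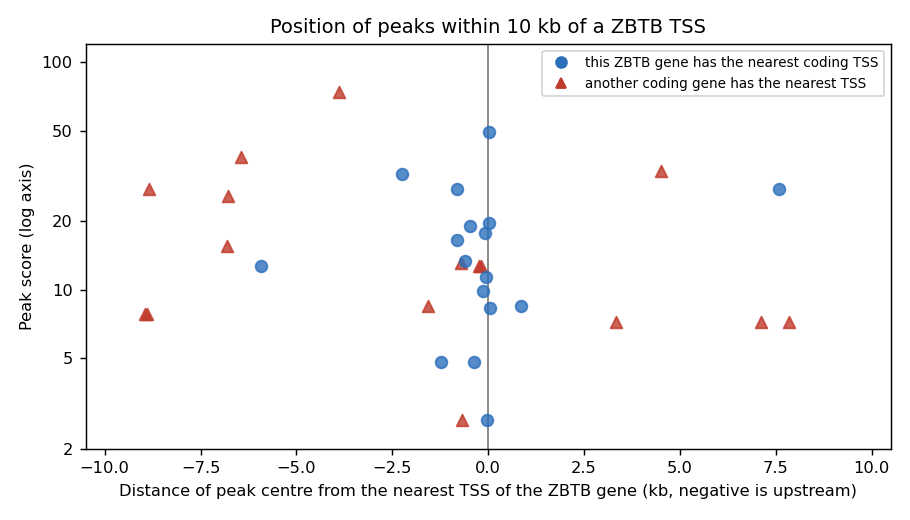
Points show peak score on a log axis against the distance of the peak centre from the nearest TSS of the ZBTB gene in kb, with triangles where another protein-coding gene has the nearest TSS; peaks beyond 10 kb, which are intronic in Zbtb8a, Zbtb16 and Zbtb20, are not drawn. The highest triangle is the Zbtb3 peak of 73.9 at the Polr2g promoter, and the highest circle the Zbtb9 peak of 49.4.

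Promoters were examined by the peak centres within 1 kb of a TSS of the member. At least 1 such peak was present at 14 of the 35 genes, or 40.0% (Wilson 95% interval 25.6% to 56.4%), where 25.0% of all protein-coding genes had one. Zbtb6 and Zbtb26 were counted through 1 shared peak, nearest to the TSS of Rabgap1. Zbtb25 was counted through a peak with a score of 2.67 that also lies at the Zbtb1 promoter. Without Zbtb8os, 13 of 34 genes (38.2%) had a promoter peak. The share with a peak of a score of 23.2 or higher, by the first rule, was 25.7% for ZBTB genes, or 9 genes, and 14.0% for all protein-coding genes. Zbtb1 and Zbtb25 reached this score through the same peak, and Zbtb3, Zbtb12 and Zbtb22 through peaks nearest to the TSS of a gene that is no member. Among genes with a CpG-rich promoter this share was 25.9% for ZBTB genes and 20.9% for all, and the promoter share 40.7% and 42.2%. Both shares of the 35 ZBTB genes lay above the background of all protein-coding genes, but with 35 genes the intervals are wide. The promoter share did not stay above it for peaks in the upper quartile of scores, which were at the promoter of 2 ZBTB genes of 35, Zbtb9 and Zbtb10, and of 6.69% of all protein-coding genes.

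Other gene families were counted in the same way. A peak was found for 152 of 367 genes named Zfp with a digit (41.4%), which mostly encode zinc finger factors without a BTB domain, for 30 of 67 Trim genes (44.8%) and for 12 of 17 Klf genes (70.6%). The interval of the ZBTB share overlapped those of these families, and no difference between families was tested.

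**Figure D3:**
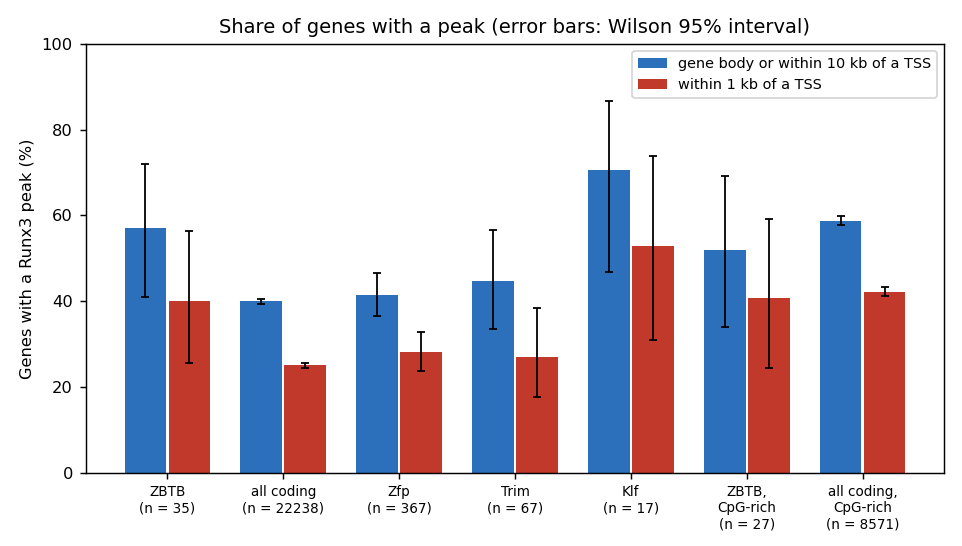
Bars give the percentage of genes with a Runx3 peak under the 10 kb rule and within 1 kb of a TSS, with Wilson 95% intervals that cover counting error only. The ZBTB bars stand at 57.1% and 40.0%, above those of all protein-coding genes at 40.0% and 25.0%, and among genes with a CpG-rich promoter at 51.9% and 40.7%, below 58.8% and 42.2%.

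The sequence of the promoter, which the choice of members did not use, was measured in the 1 kb around the main TSS. A promoter was called CpG-rich with a CpG ratio, observed over expected, of at least 0.6 and at least 55% GC. By this measure 27 of the 35 ZBTB genes (77.1%) and 38.5% of all protein-coding genes were CpG-rich. Of the 27 genes 14 had a peak, against a background of 58.8%, and 11 had a peak within 1 kb of a TSS, against 42.2%. Of the 8 other ZBTB genes 6 had a peak, where 28.1% of genes without a CpG-rich promoter had one. These were Zbtb3, Zbtb6, Zbtb8a, Zbtb12, Zbtb26 and Zbtb32, and among them Zbtb3, Zbtb6, Zbtb12 and Zbtb26 had peaks nearest to the TSS of another gene. Whether promoter composition accounts for the share of ZBTB genes with a peak was not tested.

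Bound and unbound members overlapped in promoter composition. The CpG ratio ran from 0.312 to 1.00 with a median of 0.7503 in the 20 genes with a peak, and from 0.310 to 1.01 with a median of 0.826 in the 15 without one. Their lengths overlapped too, with medians of 17724 bp and 25217 bp, although a longer gene body gives more room for a peak.

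**Figure D4:**
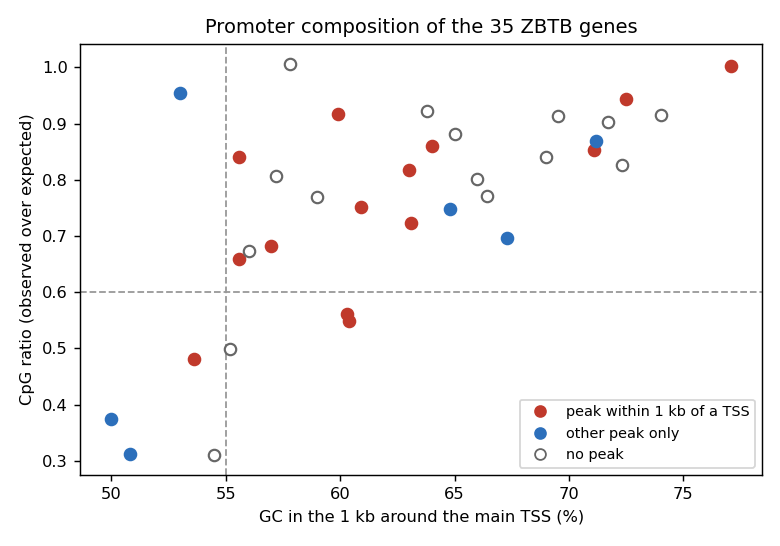
Each point is 1 of the 35 ZBTB genes, placed by the GC percentage and the CpG ratio of the 1 kb around its main TSS. Points are red for a peak within 1 kb of a TSS, blue for other peaks only and open for no peak. Dashed lines mark 55% GC and a ratio of 0.6. Genes with and without a peak are mixed, and the 27 genes of the upper right field include 14 with a peak.

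Scores at ZBTB genes resembled those of the whole list. The median was 13.4 (95% order-statistic interval 9.84 to 22.1) for the 33 peaks and 12.1 for the list, and the list median was reached by 20 of the 33 peaks. Scores at ZBTB genes ran from 2.67 to 77.4. Peaks within 1 kb of a member's TSS had a median of 13.1 and the other 18 peaks one of 18.8. The 10 peaks at least 1 kb from every protein-coding TSS had a median of 24.0, with an interval from 4.79 to 38.1 that includes the list median.

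**Figure D5:**
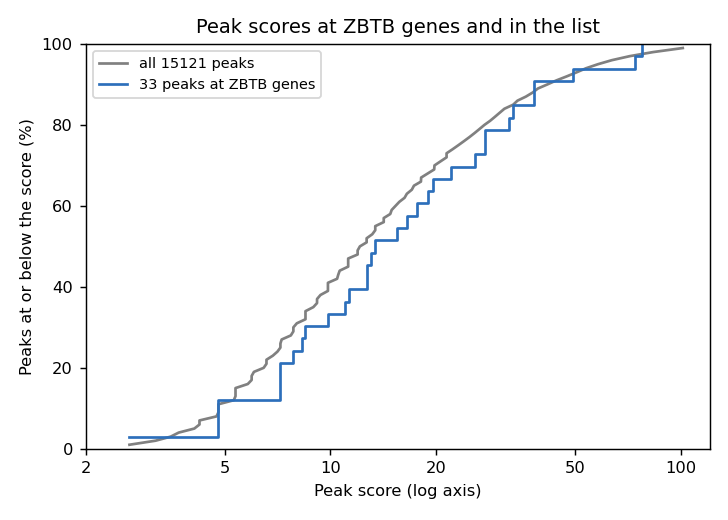
Lines give the percentage of peaks at or below each score, on a log axis, for the 33 peaks at ZBTB genes and for the 15121 peaks of the list (percentiles 1 to 99). The lines run close together, with medians of 13.4 and 12.1.

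TGTGGT was present in 15 of the 33 peaks, or 45.5% (Wilson 95% interval 29.8% to 62.0%), and in 54.0% of the list. It was in 9 of the 23 peaks within 1 kb of a protein-coding TSS (39.1%), where the list had 33.6%, and in 6 of the 10 peaks farther away (60.0%), where the list had 65.7%. The intervals of these shares, 22.2% to 59.2% and 31.3% to 83.2%, overlap. Peaks at ZBTB genes had a median of 56.8% GC against 50.7% in the list, and a median width of 433 bp against 406 bp. More of them, 69.7% against 36.3%, lay within 1 kb of a protein-coding TSS. There the median GC was 59.7% at ZBTB genes and 60.1% in the list, and farther away it was 46.3% and 47.6%. With the related hexamers also allowed, 26 of the 33 peaks (78.8%) and 76.6% of the list held a match. Such a match is a description of the sequence and does not show which base pairs Runx3 occupied. The study reports a larger share of its Runx3-bound regions with the RUNX motif, which it identified de novo. The shares given here count exact matches to the named hexamers within each peak.

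TGACGT is a second hexamer, which the study found enriched in Runx3-bound regions and names as the binding site of another factor, zDC (Zbtb46). It was in 2 of the 33 peaks, or 6.06% (Wilson 95% interval 1.68% to 19.6%), and in 11.0% of the list. With TCACGT also allowed, 6 of the 33 peaks (18.2%) and 19.4% of the list held a match. The peaks with TGACGT were the Zbtb3 peak at the Polr2g promoter and the Zbtb5 promoter peak, both of which also hold TGTGGT. In the list 5.05% of the peaks held both hexamers.

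The genes without a peak differed widely in how far the nearest one lay. The distance from a TSS to the nearest peak centre had a median of 39987 bp over the 15 genes and ran from 12468 bp for Zbtb17 to 282730 bp for Zbtb40. Just outside the limit of 10 kb were Zbtb17 and Zbtb45, at 14480 bp, and just inside it were the peaks 8901 bp upstream of Zbtb6 and 8840 bp upstream of Zbtb1. A strong peak at chr2:33214681-33215174, with a score of 79.8, was the nearest one to both Zbtb34 and Zbtb43, at 68815 bp and 102946 bp. With a limit of 50 kb, 29 of the 35 genes and 60.2% of all protein-coding genes had a peak. A gene without a called peak may still be bound below the level that this sequencing could detect.

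Other genes of BTB zinc finger factors, which carry older or different symbols, were taken from a list of 11 symbols, of which 10 matched the annotation. A peak was found at 9 of these 10, and the background was 40.0%. Bcl6, the master regulator of germinal centre B cells and follicular helper T cells, had 4 peaks. The highest score among them was 19.0, of the peak at chr16:23993297-23993997, 4709 bp upstream of its TSS, and the peak within 1 kb of the TSS scored 8.49. Promoter peaks were also found at Patz1, Mynn, Gzf1, Zfp295 and Zfp161, with scores of 9.84, 11.2, 13.1, 19.0 and 14.2. In all, 6 of the 10 genes had a promoter peak, where 25.0% of all protein-coding genes and 42.2% of those with a CpG-rich promoter did. Bcl6b was counted only through peaks outside the gene, 8597 bp downstream and 8090 bp upstream of its TSS. They scored 34.2 and 7.06 and hold no TGTGGT. Hic1 and Zfp238 were counted through upstream peaks alone. Hic2 had no peak.

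Genes of proteins that BTB factors recruit were examined as well, and Ncor1, Bcor, Sin3a, Hdac3 and Cul3 each had a peak by the 10 kb rule, against the background of 40.0%. This background is not matched for length. The whole list of partners had a median of 99587 bp and 7.5 TSS per gene, where all protein-coding genes had 15512.5 bp and 2 TSS. Ncor1, which encodes the corepressor NCoR, had 3 peaks, with scores of 39.0, 31.3 and 23.2. The strongest of them is intronic and holds 4 copies of TGTGGT. The Sin3a promoter peak, 14 bp from the TSS, scored 31.3, and that of Cul3, 611 bp upstream, scored 9.84. Bcor had a single weak peak, with a score of 3.17. The only Hdac3 peak scored 42.9 and lies outside the gene, 8555 bp downstream of its TSS.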

How the data were processed

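Runx3 ChIP-seq of 2 immunoprecipitates and 2 input controls was processed by the authors, who kept unique bowtie alignments to mm9 of 50 bp reads, from fragments of about 300 bp, and used MACS2 for peak calling. The submitters' processing notes also name CASAVA 1.8. The deposited file is 1 pooled peak list with a MACS2 score per peak, whose unit, threshold and handling of duplicate reads are not given in the sources used here. Library depth was not analysed, and it sets how weak a region can be called.

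Genes, TSS and exons were taken from GENCODE M1 on NCBIM37, the same assembly as mm9, and 36 gene records made 35 members because Zbtb20 has 2 records, which were joined. Positions are counted from 1. Introns and exons are numbered in the longest protein-coding transcript. Results are descriptions without a test, read beside the same count over all protein-coding genes. Intervals are Wilson 95% intervals for shares and binomial order-statistic intervals for medians.

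The members and lists were chosen with earlier results of these data known. Values were given in full for the 5 members with the highest score, the 5 with the most peaks and the members of the lists by role. The alternatives were score limits at the list median and upper quartile, joined peaks, any base of a peak, other TSS sets, distances and assignment rules, the 200 bp around the peak centre and degenerate hexamers. The code was tested on simulated data. Versions were pysam 0.24.0, scipy 1.17.1, numpy 2.4.6 and matplotlib 3.10.9 under Python 3.11.15. The microarrays and the fold changes of the study were not used. One gene of the list of BTB partners is not reported here.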

Additional observations from a re-analysis of the deposited data

How the results depend on the processing

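No paired analysis was possible because MACS2 was run once over all samples and gave no value per replicate, and for the same reason no replicate could be left out. The count of 20 genes with a peak was the same with joined peaks, with any base of a peak and with other sets of TSS. With peaks of at least the list median score there were 20 peaks, 8 genes with a promoter peak, where 13.6% of all protein-coding genes had one, and a median score of 24.0, where that of the list was 23.2. With peaks of at least the upper quartile score there were 9 genes with a peak, where 14.0% of all protein-coding genes had one, 10 peaks, 2 genes with a promoter peak, a share below the 6.69% of all protein-coding genes, and a median score of 35.7, where that of the list was 36.1. Within 50 kb of a TSS 85 peaks were counted. The gene body alone gave 10 genes, where 23.2% of all protein-coding genes had a peak, and 12 peaks, and assignment to the nearest protein-coding TSS 21 peaks. The degenerate RUNX hexamers were in 78.8% of the peaks and 76.6% of the list. TGACGT or TCACGT was in 18.2% of the peaks and 19.4% of the list, and TGACGT within 200 bp around the peak centre in 3.03% and 5.87%. Alternatives chosen after seeing the data were the count without Zbtb8os, 19 genes, and other limits for a CpG-rich promoter. With the CpG ratio alone 15 of 28 CpG-rich ZBTB genes had a peak (53.6%), against 58.9% of all such genes, and with a ratio of 0.75 or more 9 of 21 did (42.9%), against 60.9% of all such genes.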
